A study of Homo sapiens with 16 samples.

Results

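SPDEF and 9 other genes of the ETS family of transcription factors (ELF1, ELF3, EHF, ETS1, ETS2, ETV1, ETV4, ETV5 and ETV6) were followed through actin depolymerisation in human pancreatic progenitors. They are 10 of the 25 ETS genes listed outside the SRF cofactors ELK1, ELK3 and ELK4, and 10 of the 35810 genes in the data. The group was selected on the rise of SPDEF during treatment, so the levels and fold changes of SPDEF are given as a description with no test. The other 9 were compared by a test across all genes, and all 10 passed the filter on low counts.

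The cells came from one human embryonic stem cell line, SA121, which carries an NGN3-GFP reporter, so every group shares that reporter and that single line. The line had been differentiated to pancreatic progenitors, and at day 19 the cells received latrunculin B (LatB), a drug that binds actin monomers and so takes apart actin filaments, at 0.5 µM. LatB was applied for 3 h (n = 3 libraries), 6 h (n = 3), 12 h (n = 2) or 24 h (n = 3), beside control 24 h given DMSO (n = 2) and control 0 h (n = 3). Control 0 h is tagged DMSO in the labels but set before treatment in the series text, so whether it saw DMSO is not certain. LatB 3 h, LatB 6 h and LatB 12 h were all compared with the same control 0 h libraries, and LatB 24 h with control 24 h. The labels do not say that replicates are separate cultures, so p-values measure only the spread between these libraries. In bulk RNA, fewer cells of a type and less RNA per cell cannot be told apart.

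ETS proteins share a winged helix-turn-helix domain that binds DNA around a GGAA core, and differ in their neighbouring domains, partners and tissues. SPDEF acts in secretory epithelia, where it drives maturation of goblet cells. ELF3 and EHF are also epithelial, ELF1 is broadly expressed, ETS1 and ETS2 are targets of the ERK kinase, and ETV6 is a repressor. ETV1, ETV4 and ETV5 form the PEA3 group, which is induced by FGF and ERK signalling in branching epithelia, among them the embryonic pancreas.

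The libraries held 23609727 to 33515398 estimated reads, and 16705 genes were tested. The progenitor genes PDX1 (109.7 to 173.0 TPM), NKX6-1 (39.6 to 73.2 TPM) and SOX9 (86.3 to 136.0 TPM) were present throughout, while PTF1A stayed at or below 0.93 TPM. TPM scales reads by transcript length as well as by library size. Of the markers of other cells, the 5 of blood summed to 2.30 to 5.94 TPM, most of it CD68 (1.45 to 4.74 TPM), with PTPRC and CD3E at or below 0.04 TPM. The 7 endothelial markers summed to 30.4 to 47.1 TPM, most of it EGFL7 (23.8 to 43.5 TPM), with CDH5 and TEK at or below 0.43 TPM and KDR at up to 11.1 TPM. The 8 endocrine markers summed to 58.3 to 72.7 TPM in control 0 h, 98.8 to 116.7 TPM in control 24 h and 131.7 to 480.1 TPM over the LatB groups, and their part in the values of the members was not tested. One library stood apart. In LatB 12 h replicate 2 the 8 mesenchyme markers summed to 434.9 TPM against 79.8 TPM in LatB 12 h replicate 1 and 60.7 to 131.8 TPM in the other groups, and 6 of the 8 had their highest value there. The 6 liver markers summed to 3569 TPM in it and at most 1681 TPM in the other groups. TTR, APOA1 and SERPINA1 were highest in it, whereas ALB, AFP and APOB were highest in other libraries. Of the endothelial markers, CDH5, KDR, TEK, TIE1 and ESAM were highest in it, PECAM1 was highest elsewhere and EGFL7 was lowest in it. KDR had 11.1 TPM there and at most 4.49 TPM in other libraries. Of the acinar markers, PRSS1 had 95.1 TPM in it and at most 16.2 TPM elsewhere, while CPA1, CELA3A and CTRB2 were highest in other libraries. Where leaving LatB 12 h replicate 2 out ended the call, turned the direction or moved the size of a result by over 1.5 times, the value without it is given. Where it is left out of LatB 12 h the lone library is assumed to vary like the other groups.

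The sequences before the start sites of SPDEF and EHF are shown because these were the members with the widest range of levels, SPDEF 13.7-fold and EHF 5.67-fold between the lowest and highest library in TPM. Each run is the 250 bases upstream of a RefSeq start on GRCh38.p14, 5′ to 3′ in the direction of the gene, with each GGAA or its reverse complement TTCC in capitals. The first lies at chr6:34556330-34556579 on the minus strand, next to the first base of transcript SPDEF-201. The second lies at chr11:34624007-34624256 on the plus strand, inside the EHF gene as GENCODE bounds it (chr11:34621093-34663288), since the RefSeq start used is an internal one.
SPDEF: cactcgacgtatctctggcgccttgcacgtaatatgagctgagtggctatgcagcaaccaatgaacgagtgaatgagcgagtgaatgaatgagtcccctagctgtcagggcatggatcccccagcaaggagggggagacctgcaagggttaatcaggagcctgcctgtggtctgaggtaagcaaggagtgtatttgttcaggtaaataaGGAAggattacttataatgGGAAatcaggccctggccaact
EHF: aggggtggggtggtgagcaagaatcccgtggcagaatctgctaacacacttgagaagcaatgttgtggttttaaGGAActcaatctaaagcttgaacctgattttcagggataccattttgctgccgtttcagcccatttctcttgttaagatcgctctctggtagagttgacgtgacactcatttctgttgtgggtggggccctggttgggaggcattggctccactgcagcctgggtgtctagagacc
The SPDEF window held 2 matches to the ETS core and the EHF window shown held 1, on either strand. A second RefSeq start of EHF has a window at chr11:34632316-34632565 that held 0 matches and is not shown. At least 1 match is found in 92.7% of 35116 such RefSeq windows, so the core is no mark of these genes. None of these windows held the longer CCGGAA, which contains the core and occurs in 14.5% of windows, or CATTCC, the TEAD motif, whose end overlaps the core and which occurs in 11.9%. The CArG box of SRF, found in 1.16% of windows, was in none of them.

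SPDEF (chr6:34537802-34556333) was the ninth of the 10 members by mean TPM before treatment and the fifth at 6 h and 12 h. Its level in control 0 h was 2.51, 3.27 and 3.34 TPM, and in control 24 h 3.52 and 3.90 TPM. It was 5.26, 5.90 and 4.90 TPM in LatB 3 h and 15.7, 14.3 and 16.2 TPM in LatB 6 h. All LatB libraries lay above all control libraries. In LatB 12 h it was 34.4 and 21.1 TPM, and in LatB 24 h 7.55, 8.04 and 9.26 TPM. Each group thus stood apart from the next in time, with the peak at 12 h, and the value after 24 h was again under that at 6 h.

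**Figure D1:**
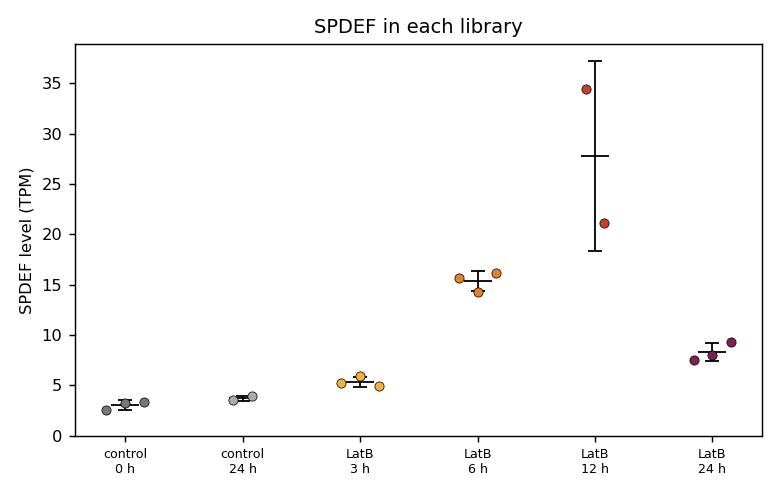
SPDEF level in TPM (vertical axis, from 0) in each of 16 libraries (points) by group, with the mean (horizontal line) and SD (error bars). The 2 LatB 12 h libraries, at 34.4 and 21.1 TPM, are the highest, and the 3 LatB 24 h libraries lie between 7.55 and 9.26 TPM.

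On the log2 scale of the fitted counts, SPDEF was higher than in control 0 h by 0.95 ± 0.20 (SE) in LatB 3 h, by 2.46 ± 0.20 in LatB 6 h and by 3.25 ± 0.21 in LatB 12 h. The last is a 9.52-fold difference. Against control 24 h, LatB 24 h was higher by 1.24 (SE 0.22), or 2.36-fold. The controls differed by 0.30 (SE 0.23). Between LatB 12 h and LatB 24 h the difference was -1.72 (SE 0.20), a 3.29-fold lower value. The reads behind these values were 91 to 146 per library in control 0 h and 891 to 1264 in LatB 12 h. Leaving out LatB 12 h replicate 1, the higher of the pair, brought the 12 h value to 2.75 and the step from 6 h to 12 h from 0.79 to 0.29, and without replicate 2 they were 3.63 and 1.17.

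Most of the SPDEF level sat on 1 of its 2 transcripts. SPDEF-201 (1910 bases) held 92.5% ± 7.62 (SD, n = 3) of the gene's TPM in control 0 h, 80.1% ± 8.63 (n = 3) in LatB 3 h, 89.2% ± 5.12 (n = 3) in LatB 6 h, 92.6% ± 8.67 (n = 2) in LatB 12 h and 94.5% ± 6.37 (n = 3) in LatB 24 h. In control 24 h it held 96.5% ± 5.01 (n = 2). The LatB 3 h share was the lowest, but each LatB group overlapped control 0 h.

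The genes whose course was most like that of SPDEF, by the mean absolute difference in log2 CPM over 16 libraries after each gene was centred on control 0 h, were SSTR1, ADH1B, UBE2QL1, ADH6 and AKR1D1. CPM scales reads by library size, here adjusted by TMM, and not by transcript length, so it compares libraries, not genes. The distance ran from 0.30 for SSTR1, a somatostatin receptor, to 0.37 for AKR1D1, an enzyme of bile acid synthesis. SSTR1 went from 4.02 ± 0.13 TPM (SD, n = 3) in control 0 h to 17.3 ± 1.97 (n = 3) in LatB 6 h, 25.9 ± 1.22 (n = 2) in LatB 12 h and 16.4 ± 1.16 (n = 3) in LatB 24 h. ADH6, an alcohol dehydrogenase, went from 1.17 ± 0.60 TPM (n = 3) in control 0 h to 6.93 ± 0.55 (n = 2) in LatB 12 h. AKR1D1 had no peak at 12 h, with 7.14 ± 0.96 TPM (n = 3) in LatB 6 h and 6.00 ± 1.89 (n = 2) in LatB 12 h. ADH1B and UBE2QL1 were low, at 0.29 and 0.21 TPM in control 0 h. By the same measure over the 6 group means, 3 of these 5 genes (ADH1B, UBE2QL1 and ADH6) were again among the nearest 5, and SSTR1 and AKR1D1 were not. No other member was close to SPDEF, the nearest being ETV1 at 1.10, while ETS2 and ETV6 were the closest pair of members at 0.07.

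Before treatment the members spanned a wide range of levels. In control 0 h the order in TPM was ETV4 (115.6 ± 9.63, SD, n = 3), ELF3 (113.1 ± 4.58), ELF1 (86.9 ± 2.50), ETS2 (55.9 ± 3.20), ETV6 (15.9 ± 0.46), EHF (7.56 ± 0.86), ETV5 (6.25 ± 1.13), ETS1 (4.12 ± 0.81), SPDEF (3.04 ± 0.46) and ETV1 (1.99 ± 0.35). Neighbours in this order whose libraries overlapped were ETV4 with ELF3, EHF with ETV5, and ETV5 with ETS1. No tested member was called between control 24 h and control 0 h by edgeR, DESeq2 or limma, and 0 of 9 had an unadjusted p under 0.05. Over all genes edgeR called 0.251% there.

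Of the 9 tested members, 3 were higher and 0 lower in LatB 3 h, 3 higher and 2 lower in LatB 6 h, 1 higher and 2 lower in LatB 12 h, and 3 higher and 2 lower in LatB 24 h, each against its control (edgeR, adjusted p under 0.05). At 3 h, 2 members were lower at an unadjusted p under 0.05, and DESeq2 and limma each called 1 lower. Over all genes, 16.8% were called higher and 14.7% lower at 3 h, 22.9% and 20.4% at 6 h, 19.1% and 16.8% at 12 h, and 21.9% and 18.8% at 24 h. With 9 genes, those background shares correspond to counts of the same order, so the number of calls is no result about the members. The members' median log2 fold change was 0.34, -0.10, -0.05 and 0.35 at these times, and that of all tested genes 0.00, -0.01, 0.01 and 0.01. Without library scaling the share of higher calls among all called genes moved from 53.3% to 36.1% at 3 h and from 52.8% to 37.7% at 6 h. No member changed direction, but lower calls were gained among the members too. These were ELF3 (-0.37) and EHF (-0.49) at 3 h, and ELF3 (-0.28), ETS2 (-0.19) and ETV6 (-0.27) at 6 h.

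**Figure D2:**
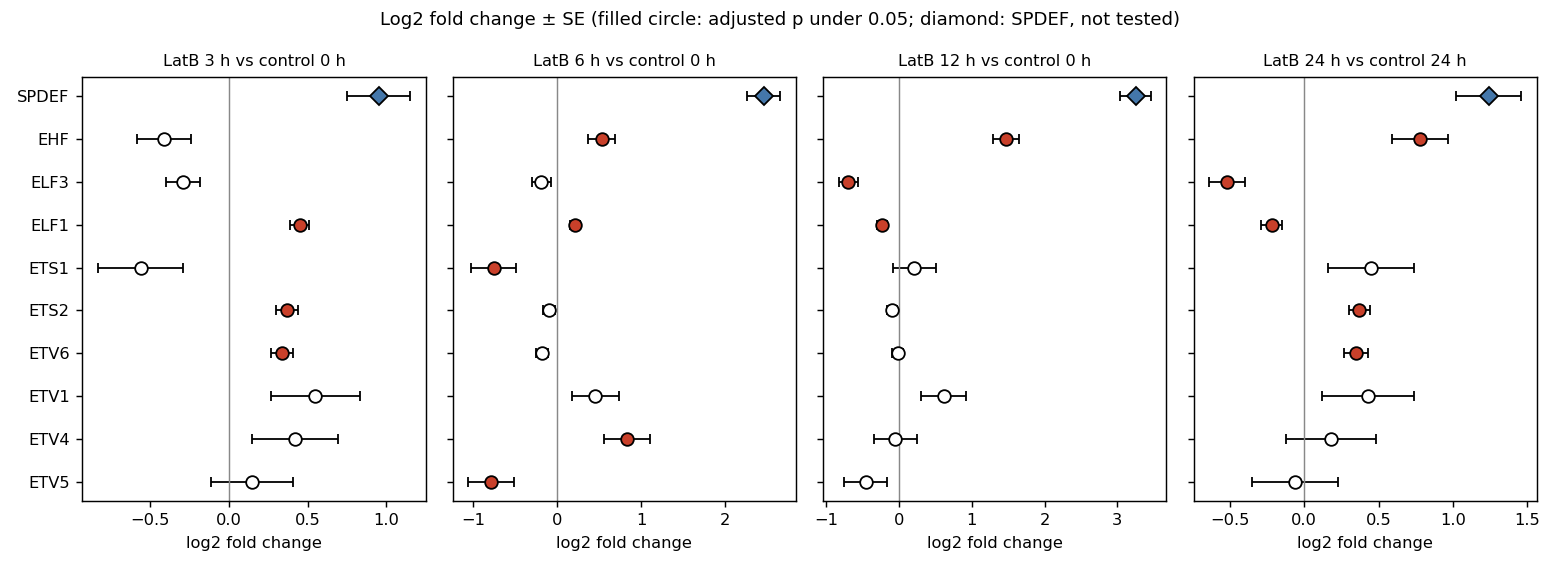
Log2 fold change (horizontal axis, a separate scale in each panel) ± SE of the 10 ETS genes in the 4 LatB comparisons. Filled circles are genes called by edgeR at an adjusted p under 0.05, open circles were not called, and the blue diamond is SPDEF, which was not tested. SPDEF lies furthest right in each panel, and EHF passes from left of 0 at 3 h to 1.47 at 12 h.

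EHF, an ETS factor of glandular and mucosal epithelia, was the other member that climbed to a peak at 12 h. In CPM it was 13.6, 12.2 and 14.5 in control 0 h, 10.7 and 12.3 in control 24 h, and 11.5, 10.6 and 8.11 in LatB 3 h. LatB 6 h had 22.8, 19.1 and 16.2 CPM, LatB 12 h 29.6 and 44.7 CPM, and LatB 24 h 19.7, 20.7 and 18.9 CPM. From 6 h on, all LatB libraries lay above all controls. The EHF difference at 3 h, on the log2 scale, was -0.41 ± 0.17 (SE; edgeR adjusted p = 0.0789), with all 3 libraries under control 0 h. It was higher by 0.53 (SE 0.16, adjusted p = 0.0185) at 6 h, 1.47 (SE 0.18, adjusted p = 4.00e-05) at 12 h and 0.78 (SE 0.19, adjusted p = 0.00457) at 24 h. The 6 h call was lost without control 0 h replicate 2 (adjusted p = 0.0848) or LatB 6 h replicate 1 (0.105), and the 24 h call without control 24 h replicate 1 (0.0611). Without LatB 12 h replicate 2, which has the higher value, EHF at 12 h was still higher by 1.14 (adjusted p = 4.01e-04).

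The effect of LatB on EHF differed between times. The 24 h effect minus the 3 h effect was 1.20 (SE 0.25, edgeR adjusted p = 0.00337), a comparison in which 2 of the 9 members and 27.9% of all genes were called. From one time to the next, EHF rose by 0.95 (adjusted p = 0.00152) between 3 h and 6 h and by 0.94 (adjusted p = 0.00167) between 6 h and 12 h, then fell by 0.91 (adjusted p = 0.00695) between 12 h and 24 h. Without LatB 12 h replicate 2 the rise from 6 h to 12 h was 0.61, and the change from 12 h to 24 h was -0.58 and lost its call. EHF-201 held 87.1% ± 5.01 (SD, n = 3) of the EHF TPM in control 0 h and 83.9% ± 13.6 (n = 2) in LatB 12 h, so the same transcript carried most of the level at both.

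ELF3 (chr1:202007945-202017183), the epithelial relative of EHF and one of the most abundant members, moved the other way from 6 h on. At 3 h both genes were under control 0 h. Control 0 h had 119.3, 120.6 and 120.6 CPM, and control 24 h had 133.7 and 123.8 CPM. LatB 3 h had 103.9, 107.7 and 83.2 CPM, LatB 6 h had 113.5, 103.6 and 98.4 CPM, LatB 12 h had 86.5 and 61.8 CPM, and LatB 24 h had 88.1, 90.9 and 90.8 CPM. Every LatB library lay under every control library. ELF3 was lower by 0.70 on the log2 scale at 12 h (-0.70, SE 0.13, edgeR adjusted p = 8.31e-04) and by 0.52 at 24 h (-0.52, SE 0.12, adjusted p = 0.00411), and both calls held in all libraries left out in turn. At 3 h the value was -0.29 (SE 0.11, adjusted p = 0.0594) and at 6 h -0.19 (SE 0.11, adjusted p = 0.18). The earlier values depended on the fit. At 3 h ELF3 was called by DESeq2 (-0.30, adjusted p = 0.0276) and by limma-trend on log2(TPM + 1) (-0.50, adjusted p = 0.0079), among others. At 6 h limma-trend gave -0.50 (adjusted p = 0.0056) while DESeq2 gave -0.20 (adjusted p = 0.161). Without LatB 12 h replicate 2 the 12 h fold was -0.48.

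ELF1 (chr13:40931924-41061440) rose early and was lower late. It measured 133.9, 124.7 and 128.0 CPM in control 0 h, 128.2 and 129.7 CPM in control 24 h and 172.2, 182.5 and 173.1 CPM in LatB 3 h. LatB 6 h had 145.5, 152.8 and 149.1 CPM, LatB 12 h had 120.0 and 98.4 CPM, and LatB 24 h had 111.5, 105.8 and 113.8 CPM. The 3 h group lay above and the 24 h group under all control libraries. On the log2 scale ELF1 was higher at 3 h by 0.45 ± 0.06 (SE; edgeR adjusted p = 1.05e-04) and at 6 h by 0.21 ± 0.06 (adjusted p = 0.0135). Its later folds were -0.24 ± 0.07 at 12 h (adjusted p = 0.0162) and -0.22 ± 0.07 at 24 h (adjusted p = 0.0184). The 24 h effect minus the 3 h effect was -0.67 (SE 0.09, adjusted p = 2.02e-04).

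The early rise of ELF1 and the difference between times were called with any library left out, whereas the smaller ELF1 calls were not. At 6 h the call was lost without control 0 h replicate 2, LatB 6 h replicate 2 or LatB 6 h replicate 3 (edgeR adjusted p = 0.0786, 0.0717 and 0.054). At 12 h it was lost without control 0 h replicate 1 (0.0509) or LatB 12 h replicate 2 (fold -0.10, adjusted p = 0.214). At 24 h it was lost without control 24 h replicate 1 (0.0801), control 24 h replicate 2 (0.087) or LatB 24 h replicate 2 (0.0612).

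**Figure D3:**
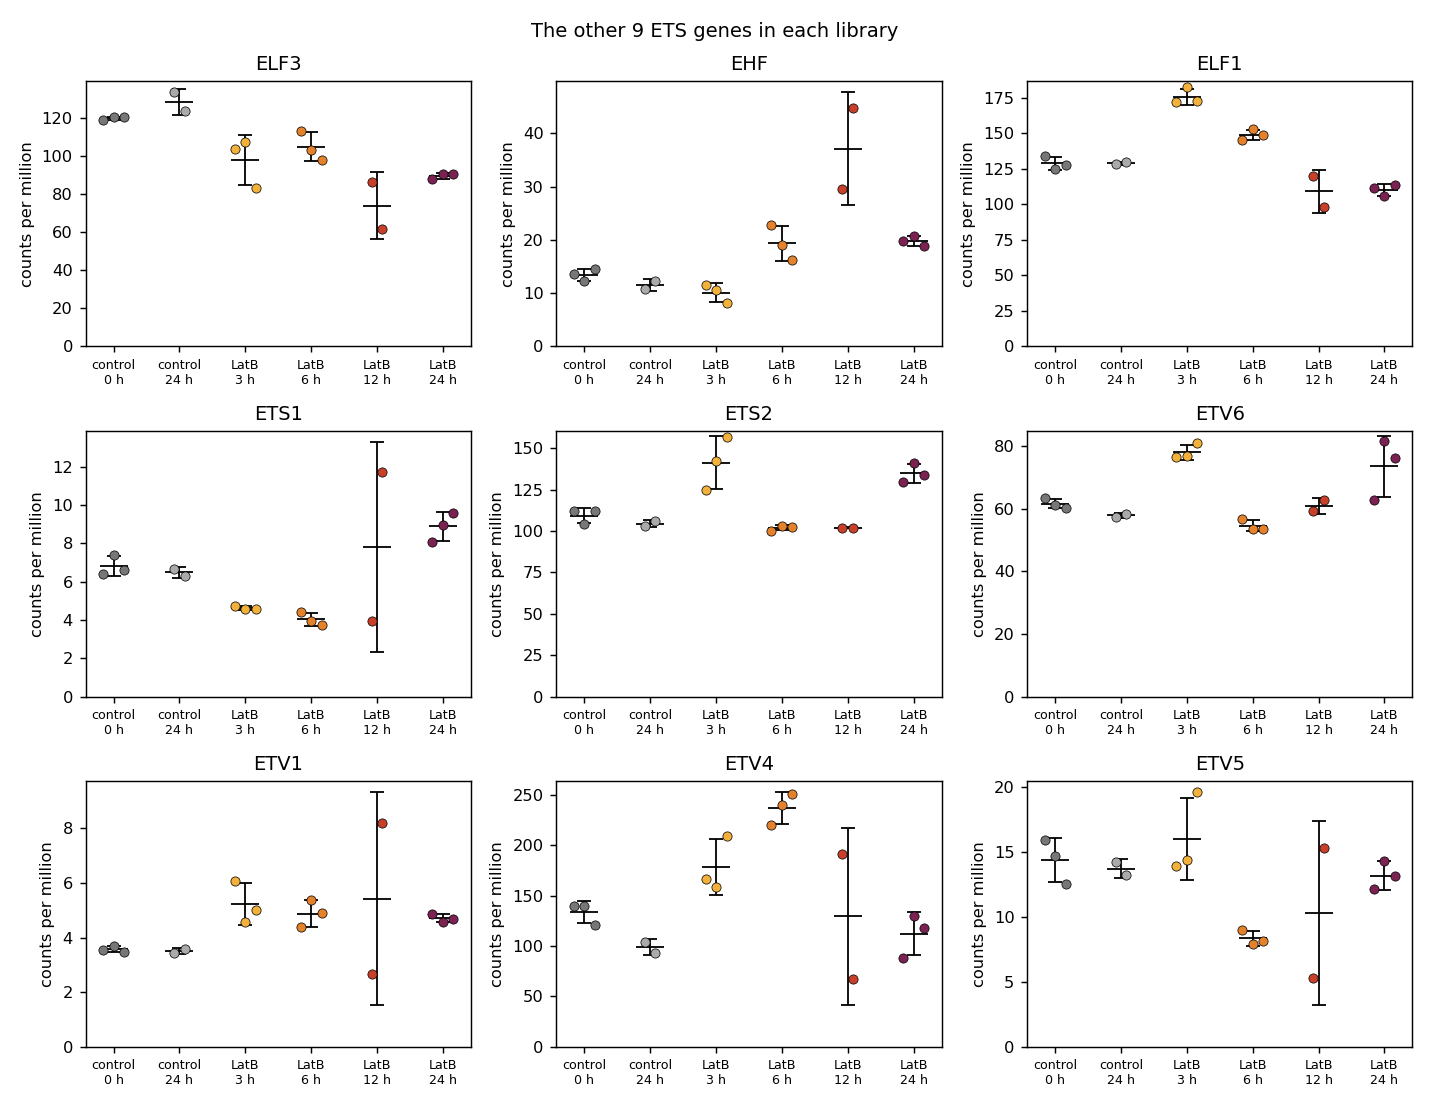
CPM (vertical axes, from 0) of the other 9 ETS genes in each library (points) by group, with mean and SD. At 12 h the 2 libraries lie close together for ETS2 and ETV6 and far apart for ETS1, ETV1, ETV4 and ETV5.

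ETS2, a target of ERK phosphorylation, and ETV6, a repressor, were both higher at 3 h and 24 h but not between. ETS2 (chr21:38805183-38824955) had 111.8, 104.3 and 111.9 CPM in control 0 h, 124.9, 142.2 and 157.0 CPM in LatB 3 h, 100.3, 103.1 and 102.5 CPM in LatB 6 h and 101.9 and 102.1 CPM in LatB 12 h. In LatB 24 h it had 129.3, 140.9 and 134.0 CPM against 102.9 and 106.0 CPM in control 24 h. Thus the 3 h and 24 h groups were above, and the 6 h and 12 h groups just under, their controls. ETS2 was higher by 0.37 at both 3 h (SE 0.07, edgeR adjusted p = 8.34e-04) and 24 h (SE 0.07, adjusted p = 0.00163), with -0.10 at both 6 h (adjusted p = 0.251) and 12 h (adjusted p = 0.327). It fell by 0.47 from 3 h to 6 h (adjusted p = 3.21e-04) and rose by 0.40 from 12 h to 24 h (adjusted p = 0.00622).

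ETV6 (chr12:11649674-11895377) had 63.4, 61.2 and 60.4 CPM in control 0 h, 76.5, 77.0 and 80.9 CPM in LatB 3 h, 56.7, 53.4 and 53.7 CPM in LatB 6 h and 59.2 and 62.7 CPM in LatB 12 h. LatB 24 h had 62.8, 81.7 and 76.2 CPM and control 24 h 57.3 and 58.5 CPM. The groups at 3 h and 24 h did not overlap their controls. ETV6 rose by 0.34 at 3 h (SE 0.07, edgeR adjusted p = 0.00308) and 0.35 at 24 h (SE 0.08, adjusted p = 0.00479), fell by 0.52 between 3 h and 6 h (adjusted p = 3.62e-04), and was at -0.18 (adjusted p = 0.0741) at 6 h and -0.02 (adjusted p = 0.9) at 12 h. From 12 h to 24 h the ETV6 value was 0.27 (edgeR adjusted p = 0.0509, DESeq2 adjusted p = 0.034). All 4 of these 3 h and 24 h calls, for ETS2 and ETV6, held with any library left out. ETV6-202 made up 95.9% to 97.9% of the ETV6 TPM in control 0 h and LatB 12 h.

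ETS1 (chr11:128458761-128587558), which is a low-abundance member here, was under its controls early and above them late. In CPM it was 6.42, 7.41 and 6.62 in control 0 h, 6.68 and 6.29 in control 24 h, 4.73, 4.58 and 4.57 in LatB 3 h and 4.42, 3.94 and 3.73 in LatB 6 h. It was 3.94 and 11.7 in LatB 12 h, and 8.09, 8.96 and 9.61 in LatB 24 h. The pair at 12 h thus holds one of the lowest and the highest value of all 16 libraries. In log2 fold change ETS1 was at -0.56 (SE 0.27, edgeR adjusted p = 0.13) at 3 h, -0.76 (SE 0.27, adjusted p = 0.0356) at 6 h, 0.21 (SE 0.29, adjusted p = 0.61) at 12 h and 0.45 (SE 0.29, adjusted p = 0.237) at 24 h. The 6 h call, on 90 to 116 reads per LatB library, was lost on leaving out any one of the 6 compared libraries (adjusted p from 0.0529 to 0.0953).

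For ETS1 the reading at 12 h depended on which library was used. It was -0.79 (edgeR adjusted p = 0.00186) on replicate 1 alone and 0.78 (adjusted p = 5.76e-04) on replicate 2 alone. Without replicate 2 in the fit, the values were -0.56 at 3 h, -0.76 at 6 h and 0.46 at 24 h. The 24 h effect minus the 3 h effect was 1.01. That fit drops the spread of the 12 h pair, and the matching fit without replicate 1 was not run for these values. The called rise from 6 h to 12 h (0.97, edgeR adjusted p = 0.025) became -0.04 without LatB 12 h replicate 2. It also lost its call without LatB 6 h replicate 2 (0.0668) or LatB 6 h replicate 3 (0.073). The TPM of ETS1 is less certain than its reads, since in control 0 h 40.3% of it was assigned to ETS1-205, a transcript of 628 bases that held 6.68% of the reads.

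ETV4 (chr17:43527844-43579620), a PEA3 factor, had its highest level at 6 h. It was the most abundant member by mean TPM in control 0 h, where it overlapped ELF3. In control 24 h its mean lay under those of ELF3 and ELF1, but its libraries (90.4 and 74.6 TPM) overlapped those of ELF1 (85.7 and 86.7 TPM). In CPM ETV4 was 139.6, 139.9 and 121.1 in control 0 h, 104.4 and 93.4 in control 24 h, 166.9, 158.5 and 209.8 in LatB 3 h and 219.8, 240.4 and 251.2 in LatB 6 h. It was 191.6 and 67.3 in LatB 12 h and 88.6, 130.1 and 118.2 in LatB 24 h. The 3 h and 6 h groups were above all control libraries. ETV4 was higher by 0.83 at 6 h (SE 0.27, edgeR adjusted p = 0.0227) and its value at 3 h was 0.42 (SE 0.27, adjusted p = 0.265). The 6 h call was lost without control 0 h replicate 2 (adjusted p = 0.055), control 0 h replicate 3 (0.0761), LatB 6 h replicate 2 (0.0579) or LatB 6 h replicate 3 (0.0692). With LatB 12 h replicate 2 out of the fit, the ETV4 folds at 6 h and 3 h were the same. That fit drops the spread of the 12 h pair, and the matching fit without replicate 1 was not run for these times.

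At 12 h the ETV4 fold was -0.05 (SE 0.30, edgeR adjusted p = 0.918), being 0.52 (adjusted p = 0.0452) on replicate 1 alone and -0.99 (adjusted p = 0.00199) on replicate 2 alone. A fall of 0.88 from 6 h to 12 h was called (-0.88, adjusted p = 0.0456) but not without LatB 12 h replicate 2 (-0.31, adjusted p = 0.302), nor without LatB 6 h replicate 1 (0.0657), LatB 6 h replicate 2 (0.0909) or LatB 6 h replicate 3 (0.101). At 24 h the value was 0.18 (adjusted p = 0.657), with overlapping groups. Against control 24 h in place of control 0 h the 3 h difference was 0.85 (adjusted p = 0.0476), since the level was 98.9 ± 7.74 CPM (SD, n = 2) in control 24 h and 133.6 ± 10.7 CPM (n = 3) in control 0 h.

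The transcript make-up of ETV4 differed between control 0 h and LatB 6 h. In TPM, ETV4-203 (2147 bases) was at 13.20, 7.28 and 3.09 in control 0 h, 9.85 and 10.67 in control 24 h, 13.70, 33.42 and 26.86 in LatB 3 h and 52.33, 40.13 and 58.21 in LatB 6 h. It was 44.14 and 0.00 in LatB 12 h and 4.72, 25.59 and 9.33 in LatB 24 h. Its share of the ETV4 TPM was 2.95% to 10.7% in control 0 h and 22.6% to 31.3% in LatB 6 h, with no overlap. The share did not follow the gene's level throughout, as it was 10.9% to 14.3% in control 24 h, where ETV4 was lowest by mean CPM, and 6.90% to 26.4% in LatB 24 h. The leading transcript, ETV4-202 (2182 bases), went from 41.6% ± 0.97 (SD, n = 3) to 28.9% ± 6.97 (n = 3) between these groups. These shares come from salmon's division of reads among transcripts that overlap, and were not tested.

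**Figure D4:**
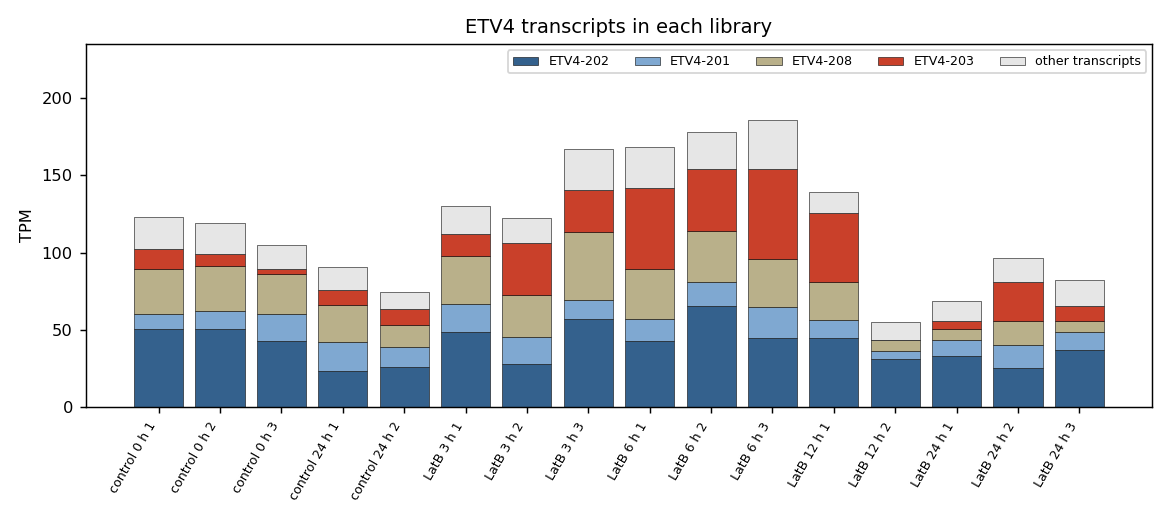
TPM of ETV4 (vertical axis, from 0) in each library, divided by transcript. ETV4-203 (red) is 40.13 to 58.21 TPM in LatB 6 h, 3.09 to 13.20 TPM in control 0 h and 0.00 in LatB 12 h replicate 2.

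ETV5 (chr3:186046314-186110318), the second PEA3 member, was lower than control 0 h at 6 h, when ETV4 was highest. It had 15.9, 14.7 and 12.5 CPM in control 0 h, 14.2 and 13.2 CPM in control 24 h, 13.9, 14.4 and 19.6 CPM in LatB 3 h and 8.95, 7.87 and 8.17 CPM in LatB 6 h. LatB 12 h had 5.29 and 15.3 CPM, and LatB 24 h 12.1, 14.3 and 13.1 CPM. Only the 6 h group lay apart from its control. ETV5 was lower by 0.79 at 6 h (-0.79, SE 0.27, edgeR adjusted p = 0.0294), with 0.15 (adjusted p = 0.706) at 3 h, -0.46 (adjusted p = 0.248) at 12 h and -0.06 (adjusted p = 0.891) at 24 h. The 6 h call was lost without control 0 h replicate 1 (0.0825), control 0 h replicate 2 (0.0654), LatB 6 h replicate 2 (0.0771) or LatB 6 h replicate 3 (0.071). At 12 h ETV5 was -1.44 (adjusted p = 2.61e-04) on replicate 1 alone, the lowest of all libraries, and 0.09 (adjusted p = 0.736) on replicate 2 alone. ETV5 also fell by 0.94 from 3 h to 6 h (adjusted p = 0.0231), a call lost without LatB 3 h replicate 3 (0.0981) or any of LatB 6 h replicates 1, 2 and 3 (0.0532, 0.0748 and 0.0707).

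ETV1 (chr7:13891229-13991425), the third PEA3 member and the lowest, was not called in any comparison. Its CPM was 3.55, 3.69 and 3.48 in control 0 h, 3.42 and 3.57 in control 24 h, 6.07, 4.58 and 5.01 in LatB 3 h, 4.38, 5.37 and 4.89 in LatB 6 h, 2.67 and 8.19 in LatB 12 h and 4.88, 4.57 and 4.69 in LatB 24 h. Apart from LatB 12 h replicate 1, all LatB libraries lay above all control libraries. Its log2 fold changes were 0.55 ± 0.28 (SE; edgeR adjusted p = 0.156) at 3 h, 0.45 ± 0.28 (adjusted p = 0.219) at 6 h, 0.61 ± 0.31 (adjusted p = 0.138) at 12 h and 0.43 ± 0.31 (adjusted p = 0.295) at 24 h, on 61 to 242 reads per library in LatB 12 h. Without LatB 12 h replicate 2 in the fit the folds at 3 h, 6 h and 24 h were the same, and the 12 h value was -0.42. That fit leaves 1 library in LatB 12 h and so drops the spread of the pair. The matching fit without replicate 1 was not run for 3 h, 6 h and 24 h. On replicate 2 alone the 12 h value was 1.19 (adjusted p = 1.06e-04), so each library of the pair gave ETV1 its own direction.

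The discordance of the pair at 12 h was not shared by all members. From replicate 1 to replicate 2, ETV4 went from 139.0 to 55.0 TPM, ETV5 from 1.93 to 7.42, ETV1 from 1.09 to 4.48 and ETS1 from 2.96 to 5.97 TPM. ELF1 (73.7 and 68.5 TPM), ETS2 (48.9 and 52.4 TPM) and ETV6 (14.7 and 17.5 TPM) were close. The same replicate 2 had COL3A1 at 207.2 TPM against 27.3, LUM at 116.3 against 18.1 and DCN at 12.5 against 0.97 TPM, all genes of fibroblast matrix, while PDGFRA was at 5.57 against 4.87 TPM. The part of such cells in the values of ETV1, ETV4, ETV5 and ETS1 was not tested. Counting members called at 12 h against control 0 h, there were 3 with both libraries, 6 on replicate 2 alone and 5 on replicate 1 alone. Over all genes the shares called were 35.8%, 35.8% and 30.7% in these fits.

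**Figure D5:**
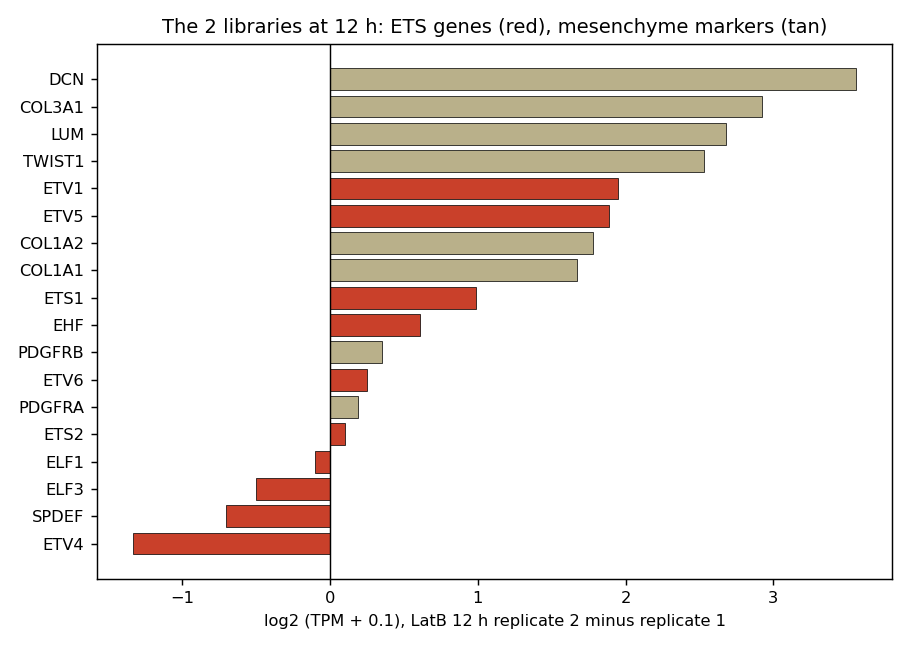
Difference between the 2 LatB 12 h libraries (replicate 2 minus replicate 1, log2 of TPM + 0.1, horizontal axis) for the 10 ETS genes (red) and 8 mesenchyme markers (tan). ETV1 (1.95), ETV5 (1.89) and ETS1 (0.99) lie on the side of DCN (3.56) and COL3A1 (2.92), and ETV4 (-1.33) and SPDEF (-0.70) on the other.

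Between consecutive times of treatment, 5 members were called from 3 h to 6 h (EHF higher, and ELF1, ETS2, ETV5 and ETV6 lower), 5 from 6 h to 12 h (EHF and ETS1 higher, and ELF1, ELF3 and ETV4 lower) and 2 from 12 h to 24 h (ETS2 higher and EHF lower), by edgeR. Among all genes 22.2%, 29.0% and 11.7% were called in these comparisons. ELF1 fell by 0.45 from 6 h to 12 h (adjusted p = 4.84e-04) and by 0.24 from 3 h to 6 h (adjusted p = 0.0138), the latter lost without LatB 3 h replicate 2 (0.0524) or LatB 6 h replicate 1 (0.0541). ELF3 fell by 0.51 from 6 h to 12 h (adjusted p = 0.00889), which was -0.28 (0.121) without LatB 12 h replicate 2.

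Among the other 15 ETS genes listed, 9 passed the filter on low counts and ERG, ETV2, ETV3L, ETV7, SPI1 and SPIC did not, none of these 6 exceeding 0.48 TPM. Of the 9, 1 was called higher and 2 lower at 3 h, 1 and 3 at 6 h, 1 and 3 at 12 h, and 2 and 3 at 24 h (edgeR, with the background shares given above). ELF5, an epithelial ETS factor, lies on chromosome 11 next to EHF, with 95899 bases between the genes, and moved the opposite way late in treatment. It had 18.4, 17.0 and 18.6 TPM in control 0 h and 18.4 and 17.7 TPM in control 24 h. LatB 12 h had 6.51 and 10.8 TPM and LatB 24 h had 3.95, 7.17 and 4.39 TPM. All 5 lay under all controls, with log2 folds of -0.88 at 12 h (SE 0.17, adjusted p = 0.00122) and -1.86 at 24 h (SE 0.16, adjusted p = 3.74e-06).

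SPIB, best known from lymphoid cells and here a gene of low level, fell at each time, by 1.06 at 3 h (SE 0.20, edgeR adjusted p = 0.00111), 1.80 at 6 h (SE 0.21, adjusted p = 1.65e-05), 1.56 at 12 h (SE 0.24, adjusted p = 2.33e-04) and 0.76 at 24 h (SE 0.22, adjusted p = 0.0125). It had 7.49, 5.19 and 7.72 CPM in control 0 h and 1.94, 1.97 and 1.95 CPM in LatB 6 h, which did not overlap. The 24 h call was lost without control 24 h replicate 2 (0.0819). ELF4 was lower by 1.12 at 24 h (SE 0.28, adjusted p = 0.00557), from 2.63 and 2.54 TPM in control 24 h to 1.60, 1.07 and 0.81 TPM.

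In tissues where SPDEF is known to act, it works beside a secretory programme of transcription factors, mucins and trefoil factors, so a list of 19 such genes was read beside it. Of these, 14 passed the filter. At 3 h, 4 were higher and 1 lower, at 6 h 4 and 0, at 12 h 8 and 0, and at 24 h 6 and 0 (edgeR), with a median log2 fold change of 0.49, 0.34, 1.13 and 0.88. Between control 24 h and control 0 h, without LatB, the median of the list was 0.38 (all genes 0.01), with 0 genes called. The 3 h and 6 h medians, taken against control 0 h, were close to that size. Over all genes 16.8%, 22.9%, 19.1% and 21.9% were called higher and 14.7%, 20.4%, 16.8% and 18.8% lower. At 3 h, 6 h and 24 h the list's higher calls were within a few genes of the background. The list was chosen with earlier results of these data known, so the count of calls, also at 12 h, is no result about it. The genes that changed were regulators and secreted proteins, while the mucins MUC2 and MUC5AC did not exceed 0.04 TPM and MUC5B did not exceed 0.39 TPM in any library.

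FOXA3, a forkhead factor, had 19.7, 18.5 and 18.6 TPM in control 0 h, 60.5, 60.5 and 64.3 TPM in LatB 6 h and 58.5 and 50.2 TPM in LatB 12 h, with a log2 fold of 1.82 at 6 h (SE 0.10, edgeR adjusted p = 3.18e-08) and 0.94 at 24 h (SE 0.11, adjusted p = 2.91e-05). CREB3L1, a regulator of the secretory pathway, was higher by 1.18 at 3 h (SE 0.11, adjusted p = 3.11e-06), 1.34 at 6 h (SE 0.11, adjusted p = 7.29e-07) and 1.19 at 12 h (SE 0.12, adjusted p = 6.38e-06). AGR2, a disulfide isomerase that mucin folding needs, came later. It was higher by 1.07 at 12 h (SE 0.24, adjusted p = 0.00426; 0.94 without LatB 12 h replicate 2) and 1.70 at 24 h (SE 0.25, adjusted p = 1.77e-04), with 106.8, 125.4 and 82.1 TPM in LatB 24 h and 33.3 and 31.0 TPM in control 24 h.

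AGR3, a relative of AGR2, was higher by 1.62 at 12 h (SE 0.26, edgeR adjusted p = 3.48e-04; also 1.62 without LatB 12 h replicate 2) and 0.82 at 24 h (SE 0.26, adjusted p = 0.0216), the latter lost without control 24 h replicate 1 (0.13), control 24 h replicate 2 (0.0739) or LatB 24 h replicate 1 (0.0757). TFF3, a trefoil peptide, was higher by 2.03 at 12 h (SE 0.35, adjusted p = 6.18e-04) and 1.71 at 24 h (SE 0.37, adjusted p = 0.00246). At 12 h its libraries were at 6.39 and 19.3 TPM, with the higher value in replicate 2, against 1.27, 4.53 and 2.36 TPM in control 0 h. Without replicate 2 the 12 h fold of TFF3 was 1.17 (adjusted p = 0.0143).

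ATOH1, which specifies secretory cells in the gut, was higher by 2.72 at 3 h (SE 0.68, edgeR adjusted p = 0.00751) and 3.07 at 6 h (SE 0.68, adjusted p = 0.0025), from 0.71, 0.25 and 0.36 TPM in control 0 h to 2.64, 3.38 and 4.16 TPM in LatB 6 h. At 12 h it was at 3.08 and 0.43 TPM, and its fold of 2.05 (adjusted p = 0.0441) was -0.12 (adjusted p = 0.929) without LatB 12 h replicate 1 and also lost its call without control 0 h replicate 2 (0.139) or control 0 h replicate 3 (0.112). At 24 h it was 2.48 (adjusted p = 0.0181), lost without control 24 h replicate 1 (0.0757), control 24 h replicate 2 (0.121) or LatB 24 h replicate 2 (0.0558). GFI1, a zinc finger repressor, stayed at or below 0.71 TPM in all libraries and was called higher at 3 h, 12 h and 24 h. It had 3 to 9 reads per library in control 0 h, 10 to 11 in control 24 h and 25 to 40 in LatB 24 h. A gene this low can pass the filter through the groups where it is higher, so its calls are given as a description. Its 3 h call was lost without LatB 3 h replicate 1 (0.0525) and its 12 h call without control 0 h replicate 1 (0.0777) or LatB 12 h replicate 2 (0.346). TFF2, a trefoil peptide, was called at 6 h (1.79, SE 0.63, adjusted p = 0.0351) but not on leaving out control 0 h replicate 1, control 0 h replicate 2 or any 6 h library (adjusted p from 0.0613 to 0.137). It had 4 to 15 reads per library in control 0 h and 29 to 32 in LatB 6 h. TFF2 could pass the filter in the same way as GFI1, so its call is likewise a description.

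As the PEA3 factors lie downstream of ERK, a list of 12 genes that ERK signalling induces was read beside them. All 12 passed the filter, and 5 were higher and 0 lower at 3 h, 4 and 2 at 6 h, 3 and 1 at 12 h, and 5 and 0 at 24 h (edgeR), with a median log2 fold change of 0.35, 0.01, 0.09 and 0.43. Set against the all-gene shares just given, the higher calls at 6 h and 12 h and the lower calls at 6 h were close to the background, and the count of calls is no result about this list. DUSP4, a phosphatase of ERK, had 11.2, 9.74 and 11.2 TPM in control 0 h and 30.0, 31.9 and 39.4 TPM in LatB 3 h, and was higher by 1.74 at 3 h (SE 0.17, adjusted p = 7.09e-06) and 0.68 at 24 h (SE 0.19, adjusted p = 0.0124). PHLDA1 was higher by 1.53 at both 3 h (SE 0.12, adjusted p = 9.24e-07) and 6 h (SE 0.12, adjusted p = 6.13e-07). EGR1, an immediate early gene, was lower by 0.54 at 6 h (-0.54, SE 0.19, adjusted p = 0.0317) and higher by 1.02 at 24 h (SE 0.20, adjusted p = 0.00125). At 6 h DUSP4, PHLDA1, IL17RD and SPRY2 were called higher and EGR1 and SPRED1 lower, and the other 6 of the 12 were not called. The DUSP4 call at 24 h was lost without control 24 h replicate 1 (0.106), and the EGR1 call at 6 h without control 0 h replicate 1 (0.0813), control 0 h replicate 3 (0.084), LatB 6 h replicate 1 (0.102) or LatB 6 h replicate 3 (0.104).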

How the data were processed

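Polyadenylated RNA of 16 libraries in 6 groups was sequenced, and the groups were taken from the sample labels. For each library the authors deposited salmon's estimated counts and TPM for 177456 transcripts (Salmon 1.3.0 and hg38 per the submitters' processing notes). The study's methods name STAR gene counts instead, so salmon's options and the use of strand are not given in the sources used here. The authors' table of DESeq2 log2 fold changes and p-values was not used, nor were its 16 columns of per-sample values.

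Transcripts were joined to genes through GENCODE release 44 by identifier (165533 matched, 2.917% to 3.167% of reads did not), and estimated counts were summed per gene and rounded. The main test was that of edgeR 4.0.16, run under R 4.3.3 (quasi-likelihood, two-sided, all 6 groups in one fit, TMM, filterByExpr, Benjamini-Hochberg over 16705 genes, called under 0.05). The filter keeps or drops a gene on all groups together. It needs enough reads in only as many libraries as the smallest group holds, so a low gene can pass through the groups where it is higher. CPM used the TMM-scaled library sizes. Since the fit shares one spread over the groups, a discordant pair in one group widens the error of all. The precision rests on the spread between libraries as well as on reads, and intervals cover the libraries only.

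The members and the gene lists were chosen with earlier results of these data known. Named were the 10 members in every comparison, genes of the other ETS, secretory and ERK lists called with a log2 fold change of at least 1 in a LatB comparison, and the 5 genes nearest to SPDEF in log2 CPM (prior count 2). IL17RD, SPRY2, SPRED1, the marker genes and the mucins are outside this rule and were named after their values were seen. Promoter windows and motifs came from RefSeq (GRCh38.p14), in which 7 of the 10 members matched. Alternatives were DESeq2 1.42.0, no filter, a filter at a mean count of 50, RLE, no scaling, a replicate block, limma-trend 3.58.1 on log2(TPM + 1) and log2(TPM + 0.1) above a mean of 0.5 TPM, only the compared groups, the other control, and leaving out each library. Leaving LatB 12 h replicate 2 out of comparisons without 12 h was added after seeing the data. The matching fit without LatB 12 h replicate 1 was not run for those comparisons. Leaving out either library of the pair drops its spread from the shared error, so calls gained that way are not specific to replicate 2. The scripts were tested on simulated counts.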

Additional observations from a re-analysis of the deposited data

Results flagged for a closer look

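Each gene below is one whose response to LatB differed between 24 h and 3 h by the test of the difference itself (edgeR, adjusted over 16705 genes, of which 27.9% were called). Among the ETS members these were EHF, with a 24 h effect 1.20 higher than the 3 h effect on the log2 scale (SE 0.25, adjusted p = 0.00337), and ELF1, with a difference of -0.67 (SE 0.09, adjusted p = 2.02e-04). Both were called on leaving out each of the 12 libraries tried. The neighbour of EHF, ELF5, had a difference of -2.17 (SE 0.22, adjusted p = 2.38e-05). Of the secretory genes, AGR2 had a difference of 1.44 (SE 0.33, adjusted p = 0.0061), TFF3 of 1.89 (SE 0.50, adjusted p = 0.0126), which lost its call without control 24 h replicate 2 (1.75, adjusted p = 0.056), and CREB3L1 of -0.89 (SE 0.16, adjusted p = 0.00107). Of the ERK targets, EGR1 had a difference of 1.43 (SE 0.27, adjusted p = 0.00181), DUSP4 of -1.06 (SE 0.25, adjusted p = 0.00705) and PHLDA1 of -0.82 (SE 0.17, adjusted p = 0.00333). The reference of the 3 h effect is control 0 h and that of the 24 h effect is control 24 h, so a difference between the controls enters each value.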

How the results depend on the processing

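The count of members called among the 9 tested depended on the setting, and the cause was not tested. At 3 h it was 3 (31.6% of all genes), and 5 with no scaling or with control 24 h as the reference, 8 when the fit held the compared groups alone (36.5% of all genes), and 3 to 8 with a library left out, the 8 without LatB 12 h replicate 2 (35.9% of all genes). At 6 h it was 5, and 1 and 2 by limma-trend with 1 and 0.1 added to the TPM, 3 with control 24 h as the reference, 8 with only the compared groups, and 0 to 6 with a library left out, the 0 without control 0 h replicate 2, where 6 had an unadjusted edgeR p under 0.05. With a library left out it was 2 to 6 at 12 h (3 with all), 3 to 7 at 24 h (5 with all), 3 to 6 from 3 h to 6 h (5 with all), 3 to 7 from 6 h to 12 h (5 with all) and 2 to 6 from 12 h to 24 h (2 with all). From 6 h to 12 h it was also 3 by both limma-trend fits and 1 with only the compared groups, and from 12 h to 24 h it was 0 with only the compared groups (2 at an unadjusted edgeR p under 0.05). Replicate numbers did not pair the libraries: deviations of same-numbered libraries correlated at -0.241 to 0.116, over 0.1 in 2 of 36 pairs. With the number as a replicate block, the count was 3 from 6 h to 12 h and within 1.5 times of the main count elsewhere.

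Of 968 alternative fold changes of the 9 genes (all LatB comparisons with a control, and others called under any setting), 813 kept direction and call, 72 lost the call, 55 gained it and 28 changed sign, 8 of these with a call before or after. Those 8, and 1 of a listed gene, came with a 12 h library left out (without replicate 1, then without replicate 2): at 12 h, ETS1 (0.78 and -0.79), ETV4 (-0.99 and 0.52) and, of the secretory genes, ATOH1 (-0.12 and 2.91); from 6 h to 12 h, ETS1 (1.54 and -0.04), ETV1 (0.74 and -0.87) and ETV5 (0.88 and -0.66); and from 12 h to 24 h, ETS1 (-0.40 and 1.18), ETV1 (-0.79 and 0.82) and ETV4 (0.74 and -0.77). The other 20 sign changes were between values that were not called. With a library left out, ETV1 at 12 h ran from -0.42 to 1.19, ETV5 from -0.04 to 0.23 at 3 h, from -1.44 to 0.09 at 12 h and from -0.21 to 1.32 from 12 h to 24 h, and ETV6 from -0.06 to 0.02 at 12 h. With the other control, ETV4 was 0.38 at 12 h and -0.25 at 24 h, and ETV6 0.07 at 12 h. With 1 and then 0.1 added to the TPM, limma-trend gave ETV1 -0.06 and -0.09 at 24 h and 0.03 and 0.13 from 12 h to 24 h, ETV4 -0.01 and -0.01 and ETV5 0.13 and 0.15 at 24 h, and ETV6 0.01 and 0.01 at 12 h. ETV6 at 12 h was 0.00 without scaling. The cause was not tested. Without scaling, the median of all genes moved to 0.11 from 6 h to 12 h and to -0.10 at 6 h. The share of higher calls went from 48.0% to 71.4% from 6 h to 12 h, from 51.0% to 62.7% from 12 h to 24 h and from 52.1% to 69.0% for the 24 h effect minus the 3 h effect.

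Over all genes, 42 were called between the controls by edgeR, and 1 to 267 under the alternatives, the most by DESeq2. With only the compared groups, calls went from 5988 to 2828 at 12 h, from 4837 to 1574 from 6 h to 12 h and from 1952 to 0 from 12 h to 24 h (2542 at an unadjusted edgeR p under 0.05), while leaving out LatB 12 h replicate 1 gave 3713 in the last. Limma-trend with a pseudocount of 1 called 3987 at 12 h, 1772 from 3 h to 6 h (3710 by edgeR), 2774 from 6 h to 12 h, 737 from 12 h to 24 h and 2974 for the 24 h effect minus the 3 h effect (4665 by edgeR). Without control 24 h replicate 1, 4034 of 6809 calls were left at 24 h. The ratio of SPDEF at 12 h to control 0 h was 9.57 in CPM and 9.14 in TPM. The median share of the leading transcript in control 0 h was 57.6% of TPM and 74.8% of reads. ETV1 and ETS1 rest on the fewest reads, with as few as 61 and 90 in a library.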
